A study of Homo sapiens with 4 samples.

Results

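SH3GL2 encodes endophilin A1, a protein that bends membrane at the neck of an endocytic pit, and it was followed here together with genes that take activated growth factor receptors from the cell surface into endosomes. The set holds 10 of the 28729 genes in the table, namely the endophilin genes SH3GL1, SH3GL2, SH3GLB1 and SH3GLB2, the adaptor genes SH3KBP1 and GRB2, the ubiquitin ligase genes CBL and CBLB, and the sorting genes EPS15 and HGS. The genes were chosen by name for these roles, and the set was proposed because SH3GL2 had one of the largest falls in this comparison, so its own difference is given as a description with no p, and its call in the fit across all genes enters counts only. All 10 were found through their Ensembl identifiers, and all 10 passed the filter of a mean FPKM of at least 1.

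The cells were TU-177, an established line from a laryngeal squamous cell carcinoma (LSCC). They carried a lentivirus with either a negative control shRNA (sh_NC, 2 libraries) or an shRNA against SKA3 (sh_SKA3, 2 libraries), and transduced cells of both groups were selected with puromycin. SKA3 is a subunit of the SKA complex, which holds spindle microtubules at the kinetochore. Nothing in the labels states that replicates 1 and 2 came from separate cultures, so the p-values measure only the spread between these libraries, which may be technical, and the shRNA in the sequenced cells is not identified by its sequence. The groups follow the labels, whereas the study's methods give sgRNA plasmids and siRNAs for the knockdown of SKA3 and mention lentiviral shRNA in TU-177 without naming its target. For a proliferation screen in another LSCC line, the study also used lentiviral shRNAs against genes raised in tumours, SKA3 among them.

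When a receptor such as EGFR binds its ligand, GRB2 and the CBL ligases are recruited to it and the receptor is tagged with ubiquitin. CBL also brings SH3KBP1 (CIN85), which in turn binds endophilin A, while EPS15 and HGS carry ubiquitin-binding motifs that gather tagged receptors at the coated pit and on the early endosome. Endophilin A1 is best known from synapses, where vesicle membrane is retrieved at high rates, and endophilin A2, the product of SH3GL1, is made in most tissues.

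The sequences just upstream of the endophilin A genes are shown because these paralogues had the lowest and the highest log2 fold change of the 10 genes. They are the 250 bases before each annotated start, 5′ to 3′ on the strand of the gene, from RefSeq on GRCh38.p14, where SH3GL2 has chr9:17578816-17579065 on the plus strand and SH3GL1 has chr19:4400548-4400797 on the minus strand. Capitals mark the GC box GGGCGG on either strand.
SH3GL2: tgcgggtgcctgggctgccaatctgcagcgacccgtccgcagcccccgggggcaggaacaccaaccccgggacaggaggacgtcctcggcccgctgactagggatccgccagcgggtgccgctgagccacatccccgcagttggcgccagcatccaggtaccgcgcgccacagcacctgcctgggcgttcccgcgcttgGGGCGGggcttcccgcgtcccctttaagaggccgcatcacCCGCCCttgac
SH3GL1: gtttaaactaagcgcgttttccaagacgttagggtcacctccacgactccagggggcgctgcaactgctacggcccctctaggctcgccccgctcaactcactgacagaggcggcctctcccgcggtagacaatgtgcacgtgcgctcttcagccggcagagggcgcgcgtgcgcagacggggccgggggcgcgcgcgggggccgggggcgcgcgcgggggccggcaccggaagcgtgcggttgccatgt
The SH3GL2 window held 2 GC boxes and the SH3GL1 window none of these letters, and 42.6% of 35116 annotated promoter windows of the same length held at least 1. SH3GL2 also had 1 CCAAT, a motif found on either strand in 32.0% of windows, while TATAAA was on neither strand of both windows and in 10.7% of all. Both windows were rich in CpG, with 25 in SH3GL2 and 33 in SH3GL1 against a median of 11. Such matches describe letters and not binding. Upstream windows were matched for 9 of the 10 genes, and CBL was not matched.

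FPKM values are fragments mapped to a gene, divided by its exon length and by the library size. Library sizes between 9015056 and 11966130 were recovered from the spacing of low FPKM values. They are the divisors used for FPKM and not read totals, since the recovered reads on genes summed to more in each library, between 9378782 and 12576362. The targeted gene, SKA3, stood at 9.40 and 9.64 FPKM in sh_NC and at 3.77 and 4.12 in sh_SKA3, a log2 fold change of -1.09 (standard error 0.07, adjusted p = 0.00806, limma). This call was lost without sh_NC replicate 1 (adjusted p = 0.066, limma) or sh_NC replicate 2 (adjusted p = 0.06, limma). Of 8 squamous epithelial markers, KRT17, SFN and EPCAM had a mean of at least 1 FPKM, whereas KRT5 lay between 0 and 0.103, KRT14 between 0 and 0.0366 and TP63 between 0.348 and 0.580, so defining markers of the labelled cell type were nearly absent. The 8 markers summed to between 193 and 208 FPKM in sh_NC and between 167 and 189 in sh_SKA3, and KRT17 fell (log2 fold change -0.53, adjusted p = 0.0396, limma). The 4 leukocyte, 2 endothelial and 5 neuronal markers in the table were each below 1 FPKM on average, and LYZ was listed at 0. The 6 fibroblast markers in the table summed to between 15.4 and 15.8 FPKM in sh_NC and between 8.86 and 9.56 in sh_SKA3, mostly through DCN (decorin), which fell from 8.40 and 8.36 to 2.48 and 2.35 FPKM (log2 fold change -1.46, adjusted p = 0.0065, limma). DCN was thus lower in the same libraries as SH3GL2. The other fibroblast markers with a mean of at least 1 FPKM were not called: PDGFRB had 2.88 and 2.46 against 3.19 and 4.13 FPKM, higher in both sh_SKA3 libraries, and COL1A1 had 3.22 and 3.99 against 2.71 and 2.66, lower in both. The part of these markers in the results was not tested.

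SH3GL2 (ENSG00000107295, chromosome 9) had 7.31 FPKM in sh_NC replicate 1 and 5.95 in sh_NC replicate 2, but 1.23 and 1.45 in the sh_SKA3 replicates. Both sh_SKA3 libraries lay far below both sh_NC libraries. The means were 6.63 ± 0.960 (SD, n = 2) and 1.34 ± 0.152 (SD, n = 2), so 20.2% of the control level was left. These values rested on 251, 154, 36 and 49 reads in the same order of libraries. Scaled to library size, the summed reads gave a ratio of 0.200, with an exact 95% interval of 0.157 to 0.254 that covers counting error only. On the log2(FPKM + 1) scale the difference was -1.70 (standard error 0.12), and this scale understates the change of a gene with few FPKM, since a pseudocount of 0.1 gave -2.22 and limma voom on the recovered reads -2.30. No exon of another gene annotated in GENCODE 29 overlapped an exon of SH3GL2 in position, and likeness of sequence to other genes was not compared.

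SH3GL2 had the 19th lowest log2 fold change of all 12645 genes tested, and the 5th lowest of the 11427 with a mean of at least 20 reads. Among the latter, PERP (-1.77) came just before it. The genes whose 4 log2 values, each centred on the gene's own mean, lay closest to those of SH3GL2 over the 4 libraries included RHOBTB1, PERP, PDK4 and SPINK1, at Euclidean distances of 0.176, 0.219, 0.255 and 0.266. RHOBTB1 was the nearest, with 25.9 and 24.9 FPKM in sh_NC and 6.62 and 6.81 in sh_SKA3. PERP, a membrane protein of desmosomes, had 72.7 and 66.1 against 20.5 and 18.6 FPKM, and PDK4, a kinase that inhibits pyruvate dehydrogenase, had a log2 fold change of -1.84. SPINK1, a secreted trypsin inhibitor, had 4.23 and 4.27 against 0.797 and 0.859 FPKM. With 4 libraries in 2 groups, this likeness mainly says that these genes were lower in sh_SKA3 by a like amount.

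SH3GL1 (ENSG00000141985, chromosome 19), the paralogue that most cell types use, was the most abundant of the 10 genes. It had 34.1 and 35.2 FPKM in sh_NC and 37.8 and 47.7 in sh_SKA3. Both sh_SKA3 values were above both sh_NC values, and replicate 2 of sh_SKA3 stood well above the other libraries. The log2 fold change was 0.29 (95% interval -0.01 to 0.59, adjusted p = 0.173, limma), so no difference passed the test. With limma voom on the recovered reads it was 0.30 and passed (adjusted p = 0.0164), and the adjusted p ran from 0.0164 to 0.358 over the alternatives with all 4 libraries. Without sh_SKA3 replicate 2 the value was 0.12. SH3GL1 has processed pseudogenes, of which SH3GL1P3 had 3.50, 3.10, 1.37 and 2.64 FPKM across the libraries in the order above, so reads may have been split between them.

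Within the endophilin A transcripts, SH3GL2 made up 17.7% and 14.5% of the FPKM of SH3GL1 and SH3GL2 together in sh_NC, and 3.16% and 2.95% in sh_SKA3. The sum of both genes was 41.3 ± 0.174 FPKM in sh_NC and 44.1 ± 7.15 in sh_SKA3 (SD, n = 2 each), and the sh_NC values lay between the sh_SKA3 values of 39.0 and 49.1. SH3GL3, the third endophilin A gene, was at 0 in 3 libraries and at 0.0660 FPKM, or 2 reads, in sh_NC replicate 2.

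**Figure D1:**
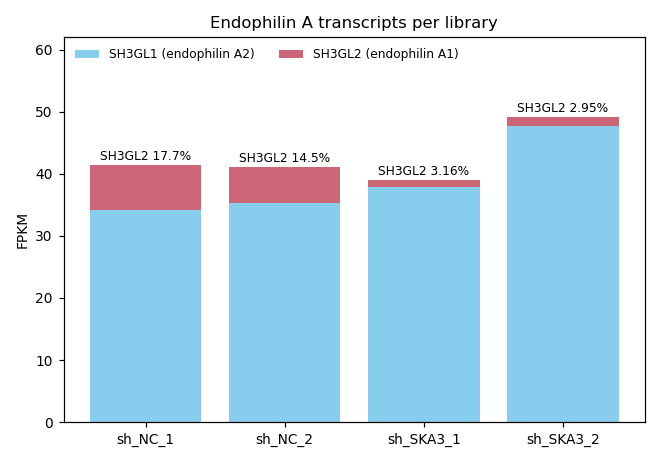
Endophilin A transcripts in FPKM on the vertical axis for each of the 4 libraries, with SH3GL1 in blue and SH3GL2 stacked on it in red; the label gives the share of SH3GL2. The red part shrinks from 17.7% and 14.5% to 3.16% and 2.95%, while the blue part is tallest in sh_SKA3 replicate 2, at 47.7 FPKM.

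The endophilin B genes act on the membranes of autophagosomes, mitochondria and the Golgi rather than at the coated pit. SH3GLB1 (ENSG00000097033, chromosome 1), whose product binds BAX and takes part in autophagosome formation, had 8.67 and 8.99 FPKM in sh_NC and 8.20 and 7.76 in sh_SKA3, without overlap between the groups. Its log2 fold change was -0.13 (95% interval -0.31 to 0.05, adjusted p = 0.266, limma). SH3GLB2 (ENSG00000148341, chromosome 9) had 23.9 and 24.7 against 22.3 and 25.8 FPKM, so the sh_NC values lay inside the range of sh_SKA3. Its log2 fold change was -0.02 (95% interval -0.24 to 0.20). SH3GLB2 shares 61 bases of exon with NUP188 on the opposite strand, and whether the counting used strand is not stated. SH3GLB1 made up 26.6% and 26.7% of the endophilin B FPKM in sh_NC and 26.9% and 23.2% in sh_SKA3.

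None of the genes that link a receptor to endophilin passed the test. SH3KBP1 (ENSG00000147010, chromosome X) had 4.46 and 5.86 FPKM in sh_NC and 4.92 and 4.35 in sh_SKA3, and the groups overlapped (log2 fold change -0.12, 95% interval -0.46 to 0.22). CBL (ENSG00000110395, chromosome 11) had 12.9 and 12.5 against 13.9 and 13.8 FPKM, higher in both sh_SKA3 libraries than in both sh_NC libraries. Its log2 fold change of 0.12 (95% interval -0.04 to 0.27, adjusted p = 0.261, limma) did not pass the test. CBL shares 509 bases of exon with MCAM on the opposite strand, and MCAM went from 63.4 and 64.2 to 36.8 and 35.2 FPKM. CBLB (ENSG00000114423, chromosome 3), the second ligase, was the least abundant of the 10 genes, with 1.27 and 1.32 FPKM in sh_NC and 0.971 and 1.18 in sh_SKA3. The log2 fold change of CBLB was -0.15 with a wide 95% interval of -0.54 to 0.24, and its adjusted p was 0.55 (limma), with both sh_SKA3 libraries below both sh_NC libraries. CBLB made up 9.26% ± 0.419 of the FPKM of CBL and CBLB together in sh_NC and 7.19% ± 0.947 in sh_SKA3 (SD, n = 2 each). GRB2 (ENSG00000177885, chromosome 17), the adaptor that binds phosphorylated receptor tails and leads to SOS and RAS, had 24.7 and 24.6 FPKM in sh_NC and 24.7 and 25.9 in sh_SKA3. Of the 10 genes it had the narrowest 95% interval, -0.12 to 0.19 around a log2 fold change of 0.03.

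The sorting genes overlapped between the groups. EPS15 (ENSG00000085832, chromosome 1), a scaffold of the coated pit, had 6.18 and 5.74 FPKM in sh_NC and 5.87 and 6.19 in sh_SKA3, a log2 fold change of 0.01 (95% interval -0.18 to 0.21). HGS (ENSG00000185359, chromosome 17), the ESCRT-0 subunit that holds ubiquitinated cargo on early endosomes, had 13.4 and 15.1 against 14.5 and 16.5 FPKM. The log2 fold change of HGS was 0.11 (95% interval -0.13 to 0.35, adjusted p = 0.474, limma). Exons of HGS overlap those of ARL16 over 303 bases and of the antisense gene AC139530.1 over 945 bases, both on the opposite strand.

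**Figure D2:**
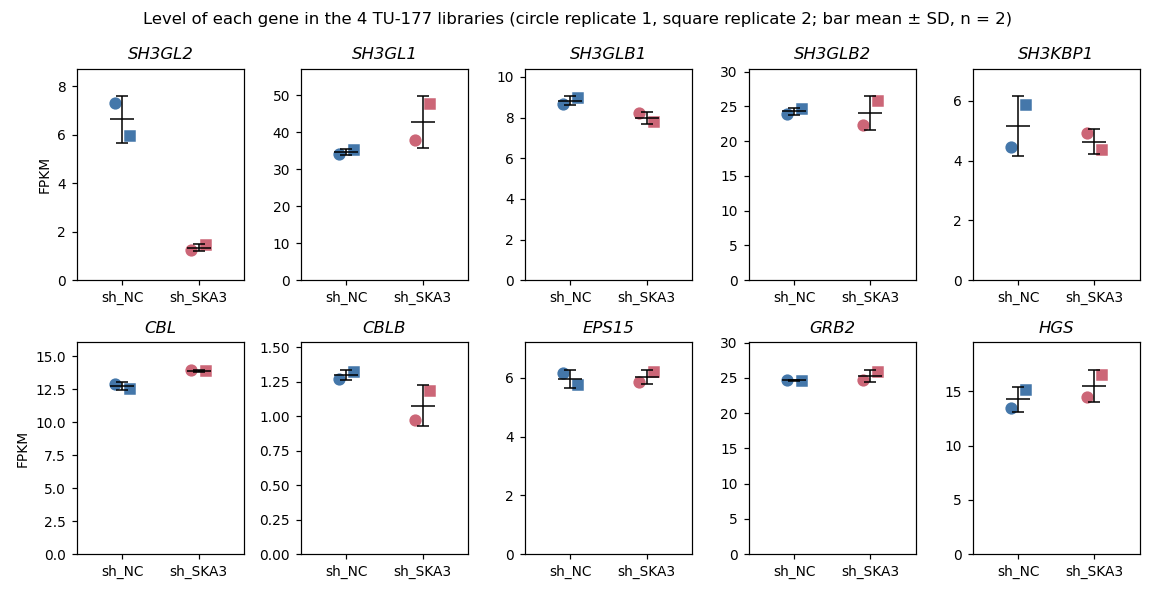
FPKM of each of the 10 genes on the vertical axes, with sh_NC in blue and sh_SKA3 in red, circles for replicate 1 and squares for replicate 2, and black bars for the mean ± SD of 2 libraries. SH3GL2 drops from 6.63 to 1.34 FPKM, and the means of the other 9 genes lie between 82.8% and 123% of their control means.

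By level, SH3GL1 led in both groups, followed by GRB2 and SH3GLB2, whose libraries overlapped, and then by HGS, CBL and SH3GLB1. In sh_NC, SH3GL2 was 7th of the 10, and its libraries overlapped with those of EPS15, which in turn overlapped with SH3KBP1. In sh_SKA3, SH3GL2 was 9th, below SH3KBP1 and above CBLB, with no overlap with either. The order of the other 9 genes was the same in both groups.

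Past an adjusted p of 0.05, SH3GL2 was the 1 gene of the 10 that was lower, and none was higher in limma at this threshold or at an unadjusted p under 0.05, while limma voom called SH3GL1 higher. Of all 12645 genes tested, 12.3% were called, 6.11% lower and 6.16% higher. An unadjusted p under 0.05 was found in 15.1% lower and 16.2% higher, and limma voom called 12.2% lower and 13.9% higher. Nothing is read from the single call, since it belongs to the gene for which the set was proposed. The groups did not overlap in 5 of the 10 genes, 3 lower and 2 higher, against 61.6% of all genes tested, 29.2% lower and 32.3% higher. The median log2 fold change was -0.0025 over the 10 genes and 0.01 over all genes tested. Over the alternatives with all 4 libraries, each of the other 9 kept the sign of its fold change. With 2 libraries in each group, 0.333 is the smallest p an exact permutation test allows, so all calls rest on the spread that limma pools across genes.

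**Figure D3:**
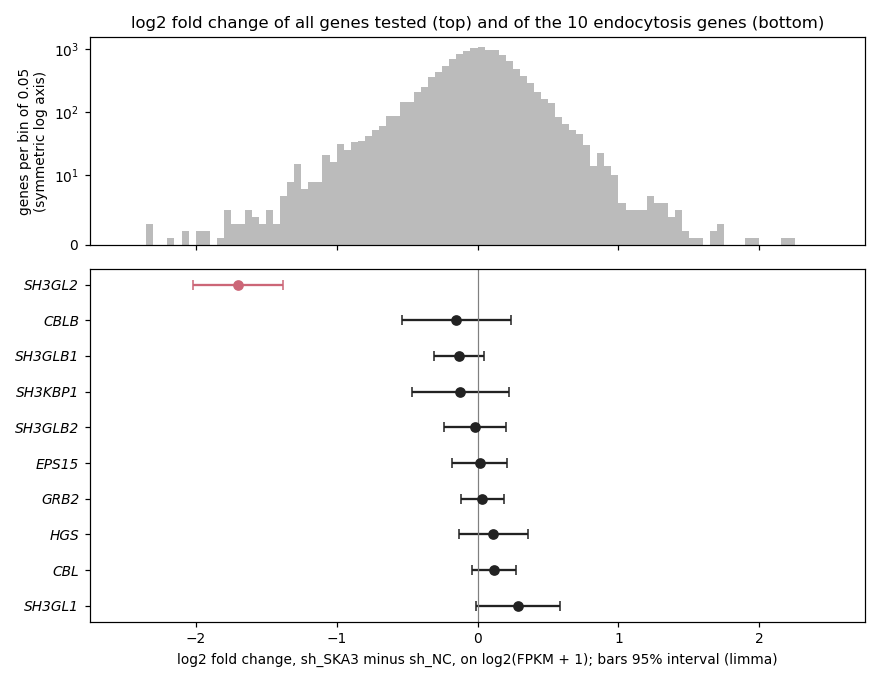
Log2 fold change of sh_SKA3 minus sh_NC on the horizontal axis, as a histogram of all 12645 genes tested with a symmetric log count axis above, and for the 10 endocytosis genes with 95% limma intervals below. SH3GL2, for whose fall the set was proposed, is at -1.70, and its interval is a description and not a test. The other 9 genes lie between -0.15 and 0.29 with intervals that include 0.

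Other genes of the pathway, 126 in 8 lists by role, were counted in the same fit. CBLC was not analysed here, 11 were below the filter and 114 were tested. Of these, 20 were higher and 4 lower past the threshold, that is 17.5% and 3.51%, against 6.16% and 6.11% of all genes tested. The median log2 fold change was 0.11 over the 114 genes. With limma voom on the recovered reads 33 were higher and 9 lower, where the shares over all genes were 13.9% and 12.2%. Without a trend in eBayes 6 were higher and 1 lower, against 312 higher and 381 lower of all genes tested. The calls in these lists did not hold when any single library was left out. Leaving out sh_NC replicate 1 or sh_NC replicate 2 also removed the calls over all genes.

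Of the receptors themselves, EGFR rose from 42.8 and 44.7 FPKM to 64.1 and 71.2, a log2 fold change of 0.62 (standard error 0.07, adjusted p = 0.0152, limma). MET, the receptor of hepatocyte growth factor, rose from 29.7 and 26.3 to 36.3 and 37.5 FPKM. ERBB2 had 6.06 and 6.41 against 7.48 and 7.94 FPKM and missed the threshold (adjusted p = 0.077, limma). With limma voom on the recovered reads ERBB2 was called higher (adjusted p = 0.0088, limma voom). ERBB3 was near 1 FPKM, and its groups overlapped.

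In the coat, 1 of 9 genes tested was called, AP2A2, an alpha subunit of the AP-2 adaptor, which rose from 5.24 FPKM in both sh_NC libraries to 6.98 and 7.26. Of 15 genes for pit initiation and cargo adaptors, NECAP2, an AP-2-binding protein, rose from 5.56 and 6.41 to 9.88 and 10.4 FPKM, and FCHO1, which starts the pit, and EPN1, which binds ubiquitinated cargo, also rose, with log2 fold changes of 0.52 and 0.55. None in either list was lower past the threshold in limma. At an unadjusted p under 0.05, 1 of the 24 was lower and 6 were higher, and limma voom called 1 lower and 8 higher, where the shares over all genes were 15.1% and 16.2% unadjusted and 12.2% and 13.9% by limma voom.

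Among 16 genes for membrane bending, scission and uncoating, the group in which the endophilins work, 2 rose and none fell in limma. At an unadjusted p under 0.05, 1 was lower and 5 higher, and limma voom called 1 lower and 6 higher, against the same shares over all genes. BIN1 (amphiphysin 2), which like endophilin bends membrane with a BAR domain, rose from 25.8 and 28.5 to 39.8 and 42.0 FPKM, a log2 fold change of 0.57 (standard error 0.07, adjusted p = 0.018, limma). HSPA8, the chaperone that strips clathrin from vesicles, rose from 318 and 301 to 452 and 429 FPKM, although its many pseudogenes make the count uncertain. DNM2, the dynamin of most tissues, had 13.8 and 16.1 against 16.1 and 17.5 FPKM and was not called. SYNJ1, a phosphatase that endophilin A recruits to the pit, had 3.81 and 3.63 against 5.03 and 4.43 FPKM and was not called in limma. Unlike DNM2, SYNJ1 was called higher by limma voom (adjusted p = 0.0218, limma voom). DNM2 and SYNJ1 were chosen after their values were seen.

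Of 14 genes for ubiquitination and its removal, 5 rose in limma, 6 were higher at an unadjusted p under 0.05 and 5 by limma voom. None was lower in any of these. Over all genes tested, the higher shares were 6.16% in limma, 16.2% unadjusted and 13.9% by limma voom. The lower shares were 6.11%, 15.1% and 12.2% in the same order. UBASH3B (Sts-1), a phosphatase that binds CBL, rose from 4.09 and 4.37 to 7.96 and 9.50 FPKM, a log2 fold change of 0.89 (standard error 0.10, adjusted p = 0.0149, limma). LRIG1, a membrane protein that lowers the level of EGFR, rose from 1.69 and 1.31 to 2.74 and 3.21 FPKM. The 9 signalling adaptors tested beside GRB2, such as SHC1 and SOS1, held no call in limma and no upward call in limma voom. Limma voom called 2 lower, and 2 were lower at an unadjusted p under 0.05, against the same shares over all genes.

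Of 28 ESCRT genes, which form the vesicles that enclose receptors within endosomes, 2 fell (7.14%) and 3 rose (10.7%), beside the 6.11% and 6.16% of all genes tested. At an unadjusted p under 0.05, 4 were lower and 5 higher, and limma voom called 3 lower and 4 higher. Those shares over all genes were 15.1% lower and 16.2% higher unadjusted, and 12.2% and 13.9% by limma voom. CHMP4C, an ESCRT-III subunit, fell from 5.29 ± 1.01 to 2.22 ± 0.459 FPKM (SD, n = 2 each) and CHMP3 from 7.73 and 7.25 to 5.00 and 5.41. CHMP7, CHMP1A and CHMP4B rose, with log2 fold changes of 0.35, 0.31 and 0.28. Of 19 genes of the early endosome and of recycling, 2 fell and 4 rose, against 6.11% and 6.16% of all genes tested. In this list 3 were lower and 6 higher at an unadjusted p under 0.05, and limma voom called 2 lower and 7 higher. The unadjusted and limma voom shares over all genes are those given above for the ESCRT genes. RAB5B, a GTPase of early endosomes, had 4.82 and 4.26 FPKM in sh_NC and fell to 44.1% of their mean, a log2 fold change of -0.88 (standard error 0.10, adjusted p = 0.0142, limma). RAB5A and RAB5C were more abundant and were not called. RAB5A had 13.1 and 13.4 FPKM in sh_NC against 14.2 and 14.7 in sh_SKA3, and RAB5C had 14.4 and 13.0 against 15.2 and 14.2. RAB7A, which acts on late endosomes, fell from 114 and 116 to 87.5 and 87.0 FPKM. EHD1 and EHD2, ATPases that shape recycling and caveolar membrane, rose by 0.68 and 0.53 on the log2 scale.

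**Figure D4:**
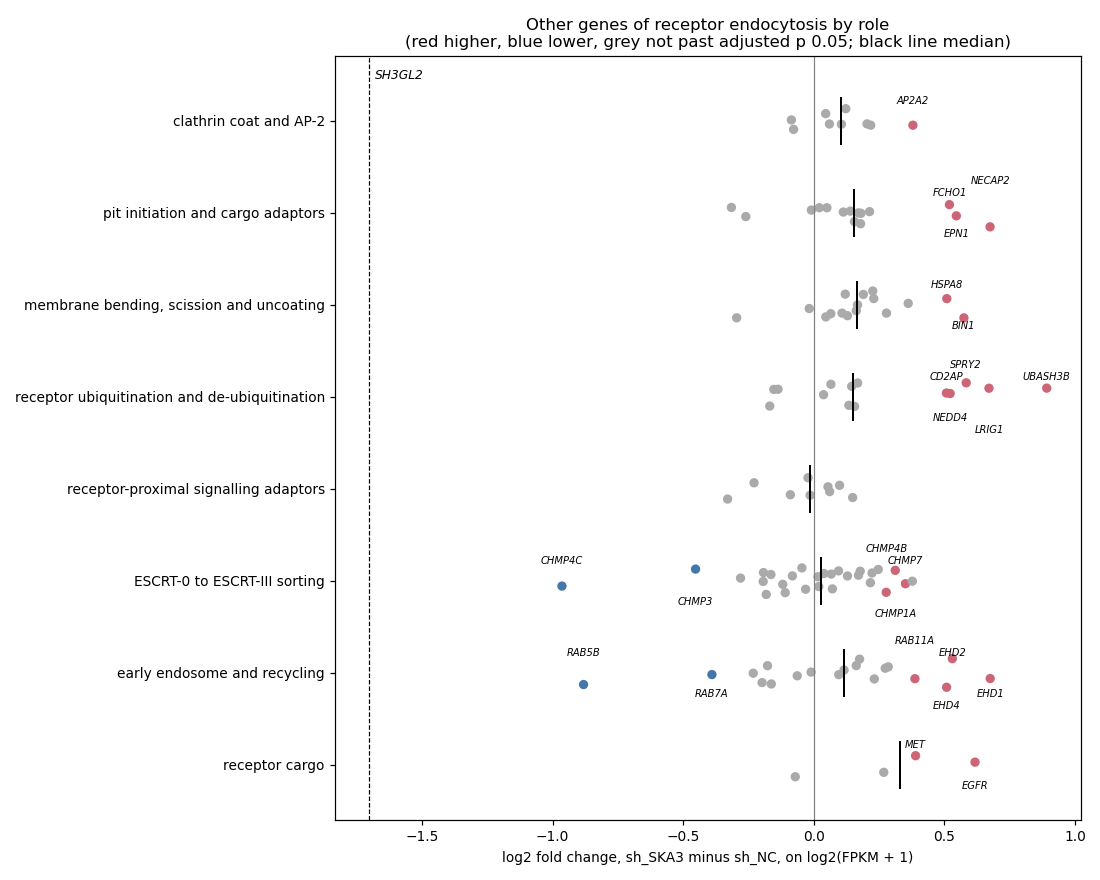
Log2 fold change of sh_SKA3 minus sh_NC on the horizontal axis for 114 pathway genes in 8 lists by role, with red points higher and blue points lower past an adjusted p of 0.05 in limma, grey points not called, and black lines for list medians. The dashed line marks SH3GL2 at -1.70, a gene chosen for its large fall, so its place beside the 114 genes is no result. The lowest of the 114 is CHMP4C at -0.96.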

How the data were processed

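RNA of TU-177 cells was made into 4 libraries, 2 sh_NC and 2 sh_SKA3, with an Illumina protocol and sequenced. The authors deposited FPKM values per Ensembl gene, that is, values already divided by gene length and library size, so differences in sequence composition are not removed. The submitters' processing notes list Bowtie2 2.2.8, HISAT2, StringTie 1.3.1, Cuffdiff 2.1.1 and hg19. Which of them made the values, the annotation and the strand setting are not given in the sources used here.

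Symbols, chromosomes and exon lengths were taken by identifier from GENCODE 29 (GRCh38), with current symbols from a paired table, and 27199 of 28729 identifiers matched. Whole reads were recovered for 98.1% of genes tested, either with these lengths (61.4%) or from the proportions between libraries (36.7%). The tolerance was 0.01 reads, and with the lengths it rose in proportion to the count at high counts. Counts of the replicates were set against sampling noise by chi-square, which divided by its degrees of freedom was 3.71 in sh_NC and 3.68 in sh_SKA3, so both were kept as separate libraries.

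The 12645 genes whose FPKM averaged 1 or more were tested on log2(FPKM + 1) without further scaling, by a linear model and moderated variances that follow a trend with the mean (limma 3.58.1, R 4.3.3). P-values were adjusted by Benjamini-Hochberg over all genes tested, with a threshold of 0.05. The fit and limma voom were also run on simulated counts with the same fixed spread for all genes, and no result given here rests on that run. The choices varied were the pseudocount (0.1), the filter (none, or a mean FPKM of at least 5), the scaling (quantile, or by median of ratios), the variance model (no trend, or robust), a block for the replicate number, limma voom on recovered reads, and leaving out each library. Genes, lists and naming rules were chosen with earlier results of these data known. Named were the 10 genes, all pathway genes called in lists with at most 4 calls, otherwise the 2 largest changes in each direction, the receptors, and the 5 genes nearest to SH3GL2, of which 1 is not reported here. Named besides, after their values were seen, were CHMP4B, RAB5A, RAB5C and genes given as neighbours in rank, examples or overlapping genes. Remaining steps used matplotlib 3.10.9, scipy 1.17.1, numpy 2.4.6 and pandas 2.3.3 under Python 3.11.15.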

Additional observations from a re-analysis of the deposited data

How the results depend on the processing

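The difference in SH3GL2 was negative under all alternatives that tested it. It moved by more than the spread within groups to -2.22 with a pseudocount of 0.1 and to -2.30 with limma voom on the recovered reads, and lay between -1.83 and -1.57 when each library was left out. At a mean FPKM of at least 5 SH3GL2 was not tested, since its mean is lower, and 0 of the 10 genes were lower. Leaving out a library gave 0 to 1 lower, and 0 without sh_NC replicate 1 or sh_NC replicate 2. Limma voom gave 1 higher, SH3GL1. SKA3 kept its direction, from -1.14 to -1.04 with a library left out, and missed the threshold without sh_NC replicate 1 or sh_NC replicate 2, with adjusted p-values of 0.066 and 0.06 (limma). Among the other 9 genes, 109 of 115 values kept direction and side of the threshold. With a library left out, the sign turned without a call in SH3GLB2 (-0.120 to 0.081, positive without sh_NC replicate 2, at 0.0024, or sh_SKA3 replicate 1), in SH3KBP1 (-0.286 to 0.044, positive without sh_NC replicate 2) and in EPS15 (-0.030 to 0.059, negative without sh_NC replicate 2 or, at -0.018, sh_SKA3 replicate 2).

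Against 772 lower and 779 higher of all genes tested, counts were 81 and 48 without the filter, 381 and 312 without the trend, 1543 and 1753 with limma voom, and 0 to 135 and 0 to 46 with a library left out, where 1467 to 1555 lower and 1363 to 1797 higher genes had an unadjusted p under 0.05. Pathway counts, 4 lower and 20 higher, became 0 and 0 without the filter (11 and 31 at an unadjusted p under 0.05), 1 and 6 without the trend, 9 and 33 with limma voom, and 0 and 0 with any library left out. The causes were not tested. With the replicate number as a block, 965 genes were lower and 1002 higher, SH3GL2 stood at -1.70, and the 10 genes gave 1 lower and 0 higher call. The labels do not say that the numbers mark a shared culture, and deviations of same-numbered libraries correlated at 0.0973 across genes. At 36 and 49 reads in sh_SKA3, counting error limits the precision of SH3GL2.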
